A study of Mus musculus with 19 samples.

Results

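The 7 genes described here, Gas5, Snhg1, Snhg3, Snhg6, Snhg8, Snhg12 and Zfas1, are non-coding genes that host small nucleolar RNAs (snoRNAs) in their introns. They were chosen by name from what is known of them and matched by symbol. Earlier results of these data were known when they were chosen. All 7 were among the 55487 genes listed for small intestinal crypts and among the 17875 genes that had enough counts to be tested. RNA came from the crypts of 19 C57BL/6 mice of both sexes (age, 10–16 wk), 1 library per mouse: 5 ad libitum–fed and 5 fasted Nt+/+ mice, and 4 ad libitum–fed and 5 fasted Nt-/- mice, which lack neurotensin (genotypes written NT +/+ and NT -/- in the labels). The paper introduces its Nt+/+ and Nt-/- mice as carrying the Lgr5-EGFP reporter. Fasted mice had water only for 48 hours, and controls were littermates on standard chow matched for sex and age. Crypts, the pits that hold the stem and progenitor cells of the epithelium, were released with EDTA. They came from the small intestine with its most distal part left out. Libraries were depleted of ribosomal RNA instead of selected for poly(A) tails, so RNAs without a tail could be counted.

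snoRNAs guide the chemical modification and cutting of ribosomal RNA in the nucleolus: C/D box snoRNAs guide 2′-O-methylation, and H/ACA box snoRNAs mostly guide the conversion of uridine to pseudouridine. In mammals most are cut from introns, and in these hosts the spliced exons encode no conserved protein. The spliced RNAs are nevertheless taken up by ribosomes and removed by nonsense-mediated decay, and several begin with a terminal oligopyrimidine (TOP) tract, the start signal of ribosomal protein mRNAs whose translation is controlled by mTORC1. Gas5 was first isolated as a transcript that accumulates in growth-arrested cells, and its RNA can bind the glucocorticoid receptor as a decoy.

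The hosts are spread over 5 chromosomes (GRCm38). Gas5 (ENSMUSG00000053332; chr1:161034422-161038539, plus strand) holds 10 annotated snoRNA genes, the most of the 7, and Snhg1 (ENSMUSG00000108414; chr19:8723475-8726443, plus strand) holds 8. Snhg12 (ENSMUSG00000086290; chr4:132308623-132311024, plus strand) holds 5, and Zfas1 (ENSMUSG00000074578; chr2:167062934-167065862, plus strand) holds 3. Snhg3 (ENSMUSG00000085241; chr4:132348014-132353686, minus strand) holds 2, Snora73a and Snora73b. Snhg6 (ENSMUSG00000098234; chr1:9941959-9944118, minus strand) and Snhg8 (ENSMUSG00000104960; chr3:123507552-123508404, minus strand) hold 1 each. Snord80 in Gas5 and Snora16a in Snhg12 are each annotated as 2 overlapping genes, and the counts of snoRNA genes here and below include both. Snhg3 and Snhg12 are near each other on chromosome 4 and are read from opposite strands.

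A start in the TOP form, a C followed by at least 4 bases that are each C or T, was found at an annotated transcript start of 6 of the 7 hosts. Of all tested genes with an annotated transcript sequence, 8.69% had such a start, and of those with 3 to 25 annotated transcripts 12.4%. The hosts had a median of 5 annotated transcripts. Among the other snoRNA hosts on the lists used here, 2 of 9 non-coding and 14 of 33 protein-coding genes had such a start. The first 40 bases are shown (GENCODE M21 transcripts, GRCm38), with the tract in capitals. Of the starts with a tract, the one shared by the largest number of annotated transcripts was taken. For Snhg1, which has none, the start shared by the largest number is shown (2 of 18 transcripts).
Gas5, start at 161035166 of chromosome 1: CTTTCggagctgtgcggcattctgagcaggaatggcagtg
Zfas1, start at 167063221 of chromosome 2: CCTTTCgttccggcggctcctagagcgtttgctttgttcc
Snhg3, start at 132353633 of chromosome 4: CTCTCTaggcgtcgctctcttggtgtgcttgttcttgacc
Snhg8, start at 123508404 of chromosome 3: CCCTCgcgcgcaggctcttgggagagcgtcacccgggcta
Snhg12, start at 132308676 of chromosome 4: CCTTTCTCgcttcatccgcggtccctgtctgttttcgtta
Snhg6, start at 9944118 of chromosome 1: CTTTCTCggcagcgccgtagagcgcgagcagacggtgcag
Snhg1, start at 8723487 of chromosome 19: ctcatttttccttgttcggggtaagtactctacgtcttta
The tract was 5 bases long in Gas5 and Snhg8, 6 in Zfas1 and Snhg3, 7 in Snhg6 and 8 in Snhg12. Snhg1 opens with 3 such bases before an A. In Gas5, 5 of 25 annotated transcripts began with a tract, and 4 of them shared the start shown. A tract began 3 of 10 transcripts in Snhg12, 1 of 3 in Snhg8, and 1 of 5 in each of Snhg3, Snhg6 and Zfas1. An annotated start is not a start measured in these crypts.

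Depth ranged from 9059418 to 35068669 counts per mouse (median, 18541770), and Snhg6, the host with the lowest average log2 CPM, had between 69 and 272 counts in every library. Levels are in CPM, counts set relative to the library total after scaling by the TMM method, and the spread between mice of a group corresponded to a biological coefficient of variation of 18.9%. Ribosomal RNA genes took 13.1% of the counts of 1 ad libitum–fed Nt+/+ mouse and 3.38% or less in each of the others. The label of 1 fasted Nt+/+ mouse, replicate 5, gives Nt-/- as its genotype while its title gives Nt+/+; it was kept by its title, and Nts, the neurotensin gene, was at 5.43 CPM in it, against 0.793 CPM in the highest Nt-/- mouse. All 5 Paneth cell and all 4 stem cell markers on the lists used here were detected in every group. Of cells from outside the epithelium, muscle markers summed to 3.91 CPM or less in every mouse, stromal markers to 11.6, erythrocyte markers to 29.1 and lymphocyte markers to 245 CPM or less.

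Gas5 was by far the most abundant host. Set per kilobase of effective transcript length, its level in ad libitum–fed Nt+/+ mice was 182 ± 12.6 CPM per kilobase (SD, n = 5), followed by Zfas1 at 50.8 ± 3.22, Snhg1 at 39.7 ± 3.97 and Snhg8 at 32.0 ± 1.81 CPM per kilobase. These 4 levels did not overlap between neighbours in the order. Snhg12, Snhg6 and Snhg3 followed at 19.2 ± 2.69, 18.96 ± 3.01 and 17.6 ± 1.80 CPM per kilobase, and each overlapped the next. Without setting CPM per length, Gas5 alone made up between 46.9% and 54.9% of the summed counts of the 7 hosts in every mouse.

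After fasting the order changed in the middle. Snhg3, the lowest in ad libitum–fed mice of both genotypes, reached 27.9 ± 3.42 CPM per kilobase in fasted Nt+/+ mice (SD, n = 5) and ranked 5 of 7, above Snhg12 at 20.2 ± 1.37 with no overlap. Snhg8, at 41.2 ± 2.86 CPM per kilobase, moved ahead of Snhg1 at 35.8 ± 1.61, though these 2 overlapped. In fasted Nt-/- mice Snhg3 again ranked 5 of 7, at 30.1 ± 7.27 CPM per kilobase (SD, n = 5), but overlapped both of its neighbours, Snhg1 above and Snhg6 below.

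**Figure D1:**
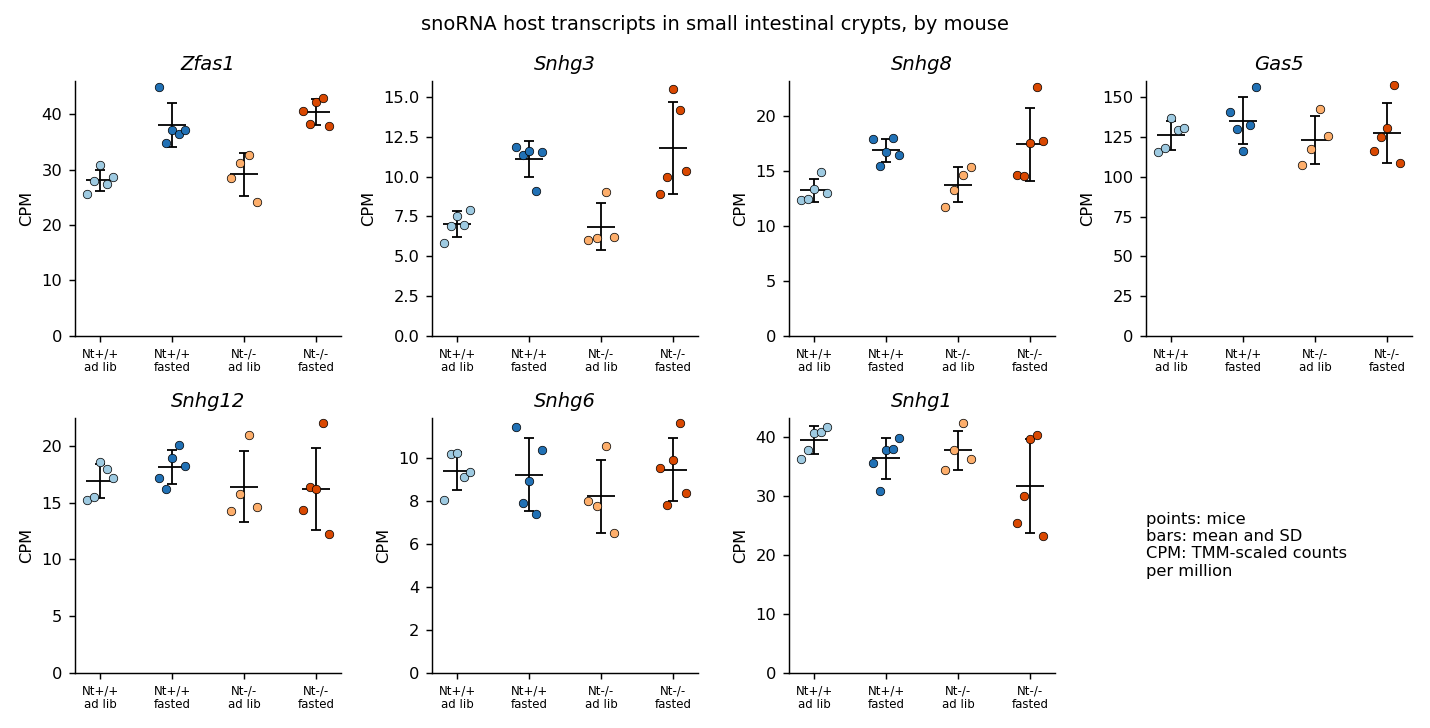
Level of each snoRNA host in CPM (vertical axis, from 0) for every mouse, grouped by genotype and diet; points are mice and bars are the mean and SD. In Zfas1 every fasted mouse lies above every ad libitum–fed mouse of its genotype, while the groups of Gas5, Snhg12, Snhg6 and Snhg1 overlap.

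The comparison of fasted with ad libitum–fed mice asked how the hosts respond when nutrients are withdrawn. Zfas1, Snhg3 and Snhg8 rose in both genotypes, and the other 4 hosts did not pass the test in either. In Nt+/+ mice 3 of 7 hosts were called higher and 0 lower at an adjusted p under 0.05 (edgeR's quasi-likelihood test, Benjamini-Hochberg adjustment over all tested genes), and 11.2% of all tested genes were called higher. The same 3 of 7 were called higher and 0 lower in Nt-/- mice, with 12.5% of all tested genes called higher. The median log2 fold change of the 7 hosts was 0.10 in Nt+/+ mice, where the median of all tested genes was -0.0089, and 0.20 in Nt-/- mice, where it was -0.022. The Nt-/- median was the value of Snhg6, and it was 0.107 without replicate 4 and 0.346 without replicate 3 of the ad libitum–fed Nt-/- mice, and 0.123 without replicate 4 of the fasted Nt-/- mice.

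Zfas1, whose RNA is known as a restraint on mammary epithelial growth, gave the clearest separation. In Nt+/+ mice it was at 25.6, 27.9, 30.9, 27.4 and 28.6 CPM ad libitum and at 45.0, 34.7, 37.2, 36.5 and 37.2 CPM after fasting. Among Nt-/- mice it was at 28.4, 31.3, 32.7 and 24.1 CPM ad libitum and at 40.6, 38.2, 42.2, 43.0 and 37.9 CPM after fasting. No fasted mouse of either genotype was as low as the highest ad libitum–fed mouse, and replicate 1 of the fasted Nt+/+ mice stood above its group. The rise was 1.36-fold in Nt+/+ mice (log2 fold change, 0.44; SE, 0.0854; adjusted p = 0.00104, edgeR's quasi-likelihood test). It was 1.39-fold in Nt-/- mice (log2 fold change, 0.47; SE, 0.0911; adjusted p = 0.000852, same test).

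Snhg3, the host of the Snora73 snoRNAs, rose most. In Nt+/+ mice it was at 5.80, 6.89, 7.53, 6.95 and 7.93 CPM ad libitum and at 11.9, 11.4, 11.6, 9.08 and 11.5 CPM after fasting, with no overlap. In Nt-/- mice it was at 6.02, 6.17, 9.05 and 6.23 CPM ad libitum and at 8.92, 9.99, 15.5, 14.2 and 10.4 CPM after fasting. There the groups overlapped through 1 mouse, replicate 3 of the ad libitum–fed group, which stood above the other 3 and just above the lowest fasted mouse. The rise was 1.58-fold in Nt+/+ mice (log2 fold change, 0.66; SE, 0.157; adjusted p = 0.0051, edgeR's quasi-likelihood test). It was 1.72-fold in Nt-/- mice (log2 fold change, 0.78; SE, 0.168; adjusted p = 0.00208, same test).

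Snhg8, a short host of 853 bases that holds Snora24, rose least of the 3. In Nt+/+ mice it was at 12.4, 12.4, 13.3, 14.9 and 13.0 CPM ad libitum and at 17.8, 15.4, 16.7, 17.9 and 16.5 CPM after fasting. Nt-/- mice had it at 11.7, 13.3, 14.6 and 15.3 CPM ad libitum and at 14.6, 14.5, 17.5, 22.6 and 17.7 CPM after fasting. The groups were apart in Nt+/+ mice and overlapped in Nt-/- mice. The rise was 1.28-fold in Nt+/+ mice (log2 fold change, 0.35; SE, 0.112; adjusted p = 0.0278, edgeR, quasi-likelihood) and 1.27-fold in Nt-/- mice (log2 fold change, 0.34; SE, 0.119; adjusted p = 0.0421, same test). This call was lost with no filter on low counts in both genotypes (adjusted p = 0.0629 in Nt+/+ and 0.11 in Nt-/- mice). In Nt+/+ mice it was also lost without replicate 1, 2 or 5 of the ad libitum–fed group or replicate 1 or 4 of the fasted group (adjusted p up to 0.0664). The call in Nt-/- mice was lost without replicate 1, 2 or 3 of the ad libitum–fed Nt-/- group, replicate 3, 4 or 5 of the fasted Nt-/- group, or replicate 3 or 5 of the ad libitum–fed Nt+/+ group (adjusted p up to 0.143).

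Gas5, the gene named for growth arrest, did not pass the test with fasting. In Nt+/+ mice it was at 116, 118, 137, 130 and 130 CPM ad libitum and at 141, 130, 116, 132 and 156 CPM after fasting. In Nt-/- mice it was at 107, 117, 143 and 125 CPM ad libitum and at 116, 125, 131, 158 and 108 CPM after fasting. The groups covered much of the same range. The log2 fold change was 0.10 in Nt+/+ mice (95% interval, -0.11 to 0.31; adjusted p = 0.52, edgeR, quasi-likelihood) and 0.05 in Nt-/- mice (95% interval, -0.17 to 0.27; adjusted p = 0.787, same test).

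Snhg1 was the host with the lowest fold change in both genotypes. It was at 36.3 to 41.8 CPM in ad libitum–fed and at 30.9 to 39.9 CPM in fasted Nt+/+ mice, with a log2 fold change of -0.12 (95% interval, -0.38 to 0.14; adjusted p = 0.555, edgeR's quasi-likelihood test). In Nt-/- mice it was at 34.5, 37.8, 42.4 and 36.3 CPM ad libitum and at 25.5, 30.0, 39.8, 40.4 and 23.3 CPM after fasting. The fasted Nt-/- mice divided into 3 below every ad libitum–fed mouse and 2 within their range, and the log2 fold change was -0.25 (95% interval, -0.53 to 0.02; adjusted p = 0.179, same test).

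Snhg12 and Snhg6 also did not pass the test. Snhg12, which hosts several H/ACA snoRNAs, had log2 fold changes of 0.10 in Nt+/+ mice (95% interval, -0.18 to 0.38) and -0.02 in Nt-/- mice (95% interval, -0.32 to 0.27). Snhg6, which hosts Snord87, had log2 fold changes of -0.02 in Nt+/+ mice (95% interval, -0.33 to 0.28) and 0.20 in Nt-/- mice (95% interval, -0.12 to 0.53). Their lowest adjusted p was 0.382 (edgeR, quasi-likelihood).

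**Figure D2:**
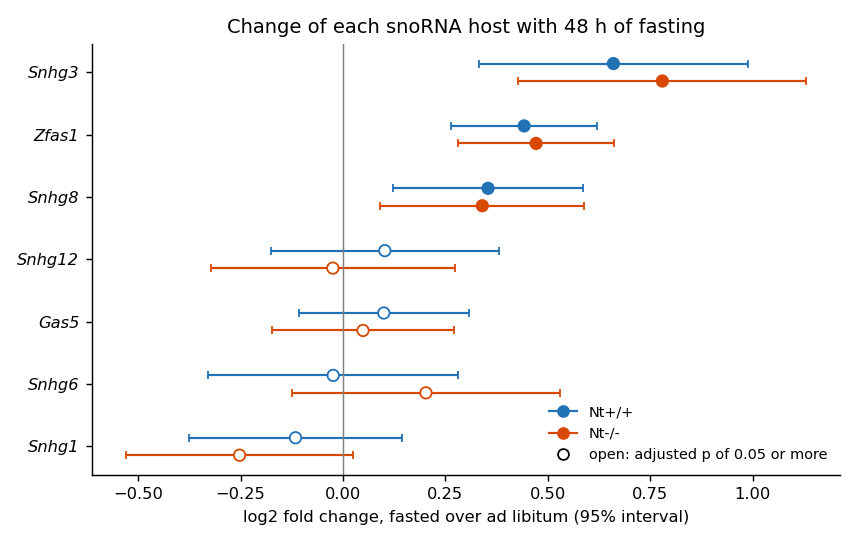
Log2 fold change of fasted over ad libitum–fed mice (horizontal axis) with its 95% interval for each host in Nt+/+ (blue) and Nt-/- mice (orange); filled points had an adjusted p under 0.05. Snhg3, Zfas1 and Snhg8 are filled in both genotypes, with values from 0.34 to 0.78, and the other 4 hosts are open and lie between -0.25 and 0.20.

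By range, every fasted mouse lay above every ad libitum–fed mouse for 3 of 7 hosts in Nt+/+ mice, against 7.63% of all tested genes, and for 1 of 7, Zfas1, in Nt-/- mice, against 10.5%. Within groups the hosts tended to be high or low in the same mice: after the group means were taken out, Pearson's r over the 19 libraries was above 0 for all 21 pairs of hosts and lay between 0.197 (Snhg8 with Zfas1) and 0.831 (Snhg6 with Zfas1). This is a description, since the values of a pair share a library and its normalization.

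Neurotensin status was compared in each diet. No host was called between Nt-/- and Nt+/+ mice: 0 of 7 passed the test ad libitum (0 at an unadjusted p under 0.05; edgeR, quasi-likelihood) and 0 of 7 passed it after fasting (0 at an unadjusted p under 0.05). limma-voom, DESeq2's Wald test and edgeR's likelihood ratio test also called 0 hosts in either diet. Of all tested genes 0.00559% were called in each diet, which is 1 gene, Nts. The log2 fold change of Nt-/- over Nt+/+ mice lay between -0.19 (Snhg6) and 0.06 (Snhg8) ad libitum and between -0.20 (Snhg1) and 0.09 (Snhg3) after fasting.

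The fasting effect itself was also compared between genotypes. The difference, Nt-/- minus Nt+/+, was called for 0 of 7 hosts (0 at an unadjusted p under 0.05) and for 0% of all tested genes (485 genes at an unadjusted p under 0.05; edgeR's quasi-likelihood test; 0 hosts also by limma-voom, DESeq2's Wald test and edgeR's likelihood ratio test). For Zfas1 the difference in log2 fold change was 0.03 (95% interval, -0.23 to 0.29), for Snhg3 0.12 (-0.36 to 0.60) and for Snhg8 -0.01 (-0.35 to 0.33). For Gas5 it was -0.05 (-0.35 to 0.25). Of the 7 intervals, that of Snhg6 reached highest, from -0.22 to 0.67, and that of Snhg12 lowest, from -0.53 to 0.28.

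The snoRNAs inside the hosts were followed next, since a host gives rise to both a spliced RNA and its snoRNAs. Host counts are not of spliced RNA alone. Transcripts that keep an intron made up 20 of 25 annotated for Gas5 and 14 of 18 for Snhg1. How RSEM divided intron reads between a host and its snoRNAs was not tested. Of 30 annotated snoRNA genes inside the 7 hosts, 22 had any count and 7 had enough to be tested: 3 in Gas5, 2 in Snhg3, 1 in Snhg1 and 1 in Snhg12. By their letters, 17 of the 30 had a C box (TGATGA) within 15 bases of the start and a D box (CTGA) within 15 bases of the end, 6 ended in an ACA box followed by 3 bases, and 7 had neither. None of the 7 was called with fasting in either genotype (0 at an unadjusted p under 0.05 in each; edgeR's quasi-likelihood test). Of these tested genes, only Snora73a and Snora73b had a mean above 100 counts per library. The SE of the log2 fold change in Nt+/+ mice ran from 0.201 (Snora73b) to 0.832 (Snord47), so small changes in any of the 7 could have been missed.

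Snora73a and Snora73b, the U17 snoRNAs, which act in the cutting of precursor ribosomal RNA, were the best covered, with a mean of 312 and 314 counts per library. They are shown because their host rose most. The capitals mark the ACA box.
Snora73a, chr4:132352775-132352979, minus strand: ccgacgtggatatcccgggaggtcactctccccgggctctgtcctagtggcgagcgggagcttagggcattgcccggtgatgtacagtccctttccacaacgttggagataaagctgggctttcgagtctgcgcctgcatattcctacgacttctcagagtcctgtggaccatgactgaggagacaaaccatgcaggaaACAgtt
Snora73b, chr4:132352322-132352526, minus strand: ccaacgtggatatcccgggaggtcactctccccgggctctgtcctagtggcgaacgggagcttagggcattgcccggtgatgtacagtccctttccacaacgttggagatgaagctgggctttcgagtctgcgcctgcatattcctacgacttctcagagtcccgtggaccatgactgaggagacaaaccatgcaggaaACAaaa
Each is 205 bases long, and 198 bases (96.6%) are identical, so reads are divided between them by RSEM's model and their single values are uncertain. Their sum avoids that division.

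Snora73a was at 12.6 to 22.1 CPM in ad libitum–fed and 8.74 to 27.0 CPM in fasted Nt+/+ mice, and Snora73b at 14.1 to 23.2 and 12.1 to 20.2 CPM. The log2 fold changes in Nt+/+ mice were -0.06 (95% interval, -0.66 to 0.55) and -0.17 (-0.59 to 0.25), and in Nt-/- mice 0.36 (-0.29 to 1.01) and 0.14 (-0.31 to 0.58). In fasted Nt-/- mice 2 mice, replicates 3 and 5, stood far above the other 3 in both snoRNAs. The ratio of Snhg3 to the sum of its snoRNAs was looked at because of these values, so it restates them and is given without a test. On the log2 scale it was -2.27 ± 0.213 (SD, n = 5) ad libitum and -1.45 ± 0.36 (SD, n = 5) after fasting in Nt+/+ mice, a difference of 0.82 with no overlap. Nt-/- mice had -2.21 ± 0.374 (SD, n = 4) ad libitum and -1.57 ± 0.606 (SD, n = 5) after fasting, a difference of 0.64 with overlap, which was 0.30 without the 4 libraries of low depth or high ribosomal RNA share. The same ratios of Gas5, Snhg1 and Snhg12 differed by between -0.157 (Snhg1 in Nt-/- mice) and 0.677 (Gas5 in Nt+/+ mice), with overlap in each.

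**Figure D3:**
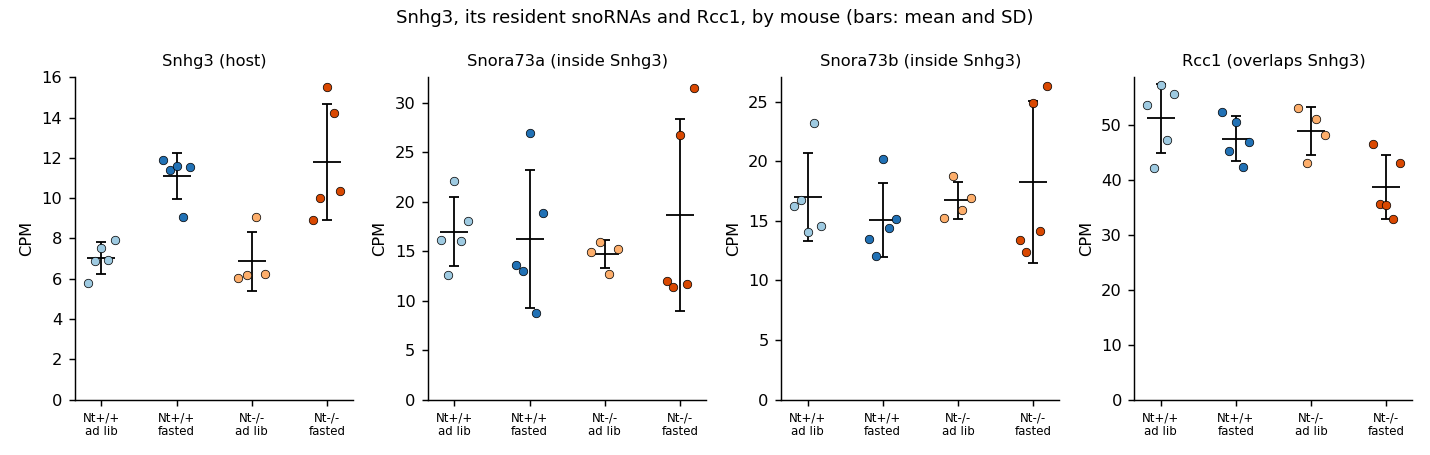
Levels in CPM (vertical axes, from 0) of Snhg3, its 2 resident snoRNAs and the overlapping gene Rcc1 for every mouse, by genotype and diet; bars are the mean and SD. Snhg3 is higher after fasting, while both snoRNAs overlap between diets and Rcc1 is lower in fasted Nt-/- mice (38.8 ± 5.82 CPM) than ad libitum (49.0 ± 4.38 CPM).

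Several hosts share sequence with a neighbour, and how RSEM was told to treat strand is not given in the sources used here. Snhg3 overlaps Rcc1 on the same strand over 5592 of its 5673 bases, and its first 81 bases, which hold the start shown above, lie outside Rcc1; Rcc1 is the exchange factor that loads Ran with GTP on chromatin. The overlap is of whole gene spans, introns included, and how far their exons overlap was not looked at. Where reads fit transcripts of both genes, RSEM estimated how they split, so the level of Snhg3 is uncertain. Snora73a and Snora73b also lie inside Rcc1 on the same strand. Whether they came from transcripts of Snhg3 or of Rcc1 cannot be told here, which also limits the ratio of Snhg3 to their sum. Rcc1 did not follow Snhg3: its log2 fold change was -0.11 in Nt+/+ mice (adjusted p = 0.499, edgeR, quasi-likelihood), and it fell in Nt-/- mice, with a log2 fold change of -0.33 (SE, 0.108; adjusted p = 0.0286, same test). The log2 ratio of Snhg3 to Rcc1, also looked at after the values were seen and given without a test, was 0.763 higher in fasted than in ad libitum–fed Nt+/+ mice and 1.11 higher in Nt-/- mice, with no overlap in either.

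Zfas1 starts 81 bases from Znfx1, a helicase gene read from the opposite strand, and overlaps it by 82 bases. Znfx1 did not pass the test, with log2 fold changes of -0.26 (adjusted p = 0.108, edgeR's quasi-likelihood test) in Nt+/+ and -0.13 (adjusted p = 0.48) in Nt-/- mice. Gas5 overlaps the opposite-strand gene Zbtb37 by 428 bases, and Zbtb37 had log2 fold changes of 0.05 and 0.12, neither called. Snhg1 starts 106 bases from Slc3a2, the heavy chain shared by amino acid transporters, which is read away from it. Slc3a2 rose with fasting, by a log2 fold change of 0.43 in Nt+/+ mice (SE, 0.133; adjusted p = 0.0263, edgeR, quasi-likelihood) and 0.54 in Nt-/- mice (SE, 0.142; adjusted p = 0.00835), while Snhg1 was at -0.12 and -0.25.

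RSEM also gives each gene a length, the mean over its annotated transcripts weighted by their estimated abundance. A shift is thus one in the estimated mix of transcripts and not in level. Whether the transcripts themselves changed was not tested. The measure was added after the data had been seen. The length of Gas5 was 792 ± 27.9 bases (SD, n = 5) ad libitum and 739 ± 22.4 bases (SD, n = 5) fasted in Nt+/+ mice (p = 0.0159, two-sided exact permutation test). It went in Nt-/- mice from 788 bases ad libitum to 703 ± 49.96 bases (SD, n = 5) fasted, with no overlap (p = 0.0159, the smallest p that the exact test can give there). Zfas1 went the other way, being 24.4 bases longer in fasted Nt-/- mice with no overlap and 10.6 bases longer in fasted Nt+/+ mice (p = 0.0159 and 0.0317, exact permutation test).

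Snhg3 and Snhg8 were shorter in fasted Nt-/- mice, by 34.2 and 21.2 bases with no overlap (p = 0.0159 each, two-sided exact permutation test), and differed by 0.184 and 3.02 bases in Nt+/+ mice (p = 0.992 and 0.77). Snhg6 was shorter by 46.7 bases in fasted Nt-/- mice, with overlap (p = 0.0476, same exact permutation test). An adjustment over the 13024 tested genes with more than 1 transcript left 0 genes in either genotype, hosts included, and with these group sizes the exact permutation test cannot give a p below 0.00794 in Nt+/+ and 0.0159 in Nt-/- mice. An unadjusted p under 0.05 was reached by 2 of 7 hosts and 9.7% of those genes in Nt+/+ mice, and by 5 of 7 hosts and 6.7% of the genes in Nt-/- mice, and the median shift over them was -10.1 and -2.47 bases. Fasted mice all below ad libitum–fed mice was found for 1.64% of these genes in each genotype, and all above for 0.737% in Nt+/+ and 1.12% in Nt-/- mice.

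**Figure D4:**
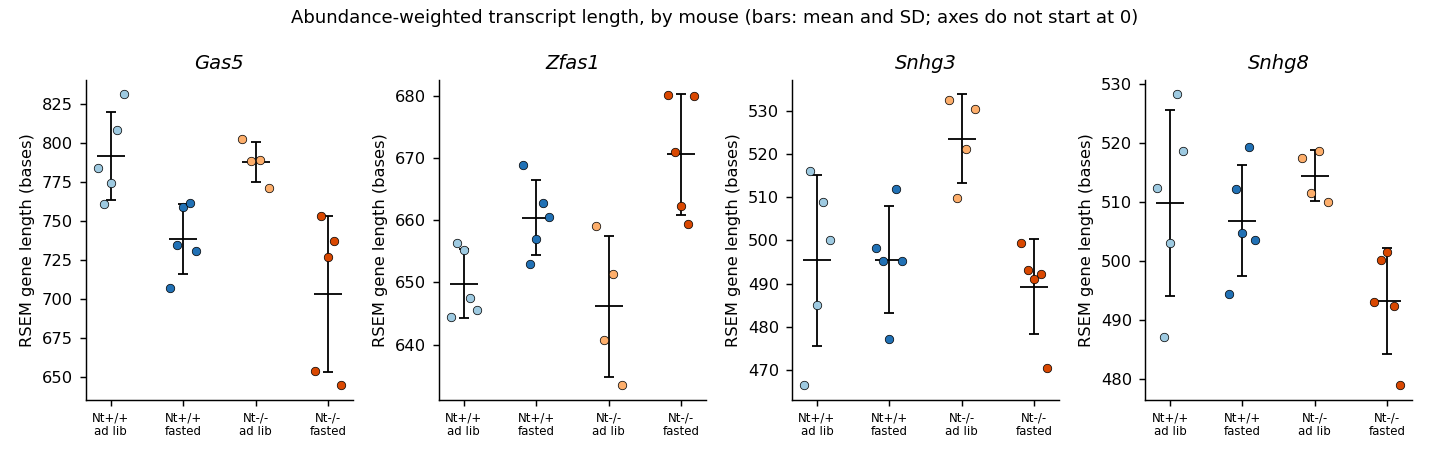
Abundance-weighted transcript length in bases (vertical axes, which do not start at 0) of Gas5, Zfas1, Snhg3 and Snhg8 for every mouse, by genotype and diet; bars are the mean and SD. Gas5 is shorter after fasting in both genotypes (739 against 792 bases in Nt+/+ mice), and Zfas1 is longer.

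The hosts were set beside the other parts of the same system, with lists that hold other snoRNA hosts, the proteins that bind snoRNAs, and the pathways that act on host RNAs. Of all tested genes, 11.2% were called higher and 10.4% lower in Nt+/+ mice, and 12.5% higher and 12.6% lower in Nt-/- mice. Of 9 tested other non-coding snoRNA hosts, 3 rose and 0 fell in Nt+/+ mice (median log2 fold change, 0.27), and 1 (11.1%, near the share of all tested genes) rose and 0 fell in Nt-/- mice (median, 0.14). Snhg15 rose in Nt+/+ mice by a log2 fold change of 0.68 (adjusted p = 0.00796, edgeR, quasi-likelihood) and was at 0.01 in Nt-/- mice (adjusted p = 0.988). Snhg17 likewise rose in Nt+/+ mice, by 0.47 (adjusted p = 0.0172), and was at 0.15 in Nt-/- mice (adjusted p = 0.492); for neither was the difference between genotypes called (adjusted p = 0.9998 each). Epb41l4aos rose in both, by 0.48 and 0.72 (adjusted p = 0.012 and 0.000768).

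Of 33 protein-coding snoRNA hosts, most of them ribosomal protein and translation factor genes, 14 rose and 0 fell in Nt+/+ mice (median log2 fold change, 0.29), and 19 rose and 1 fell in Nt-/- mice (median, 0.31). Rpl17, a protein of the large ribosomal subunit, rose by 0.49 and 0.53 in Nt+/+ and Nt-/- mice (adjusted p = 0.00193 and 0.00143, edgeR's quasi-likelihood test). Eef2, the factor that moves the ribosome along the mRNA, rose by 0.50 and 0.57 (adjusted p = 0.00403 and 0.0023), and Eef1b2, an exchange factor for elongation, rose by 0.43 and 0.45 (adjusted p = 0.00418 and 0.00384). The gene that fell in Nt-/- mice was Nop56, a core protein of C/D box snoRNA particles.

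Of 18 genes for the core proteins of snoRNA particles and their assembly, 0 rose and 2 fell in Nt+/+ mice (median log2 fold change, -0.13), and 0 rose and 7 fell in Nt-/- mice (median, -0.235). The share that fell was 11.1% in Nt+/+ mice, near the 10.4% of all tested genes, and 38.9% in Nt-/- mice, against 12.6%. Snu13, which binds the first protein site of C/D box snoRNAs, fell in both, with log2 fold changes of -0.29 and -0.33 (adjusted p = 0.0242 and 0.0145, edgeR's quasi-likelihood test), as did the assembly helicase Ruvbl1, at -0.47 and -0.48 (adjusted p = 0.0177 and 0.02). Gar1, an H/ACA core protein, fell in Nt-/- mice at -0.44 (adjusted p = 0.0396) and was at -0.34 in Nt+/+ mice (adjusted p = 0.0899).

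Nonsense-mediated decay removes host RNAs, and few of its genes passed the test. Of 16 tested decay factors, 0 rose and 1 fell in Nt+/+ mice (median log2 fold change, -0.10) and 0 rose and 3 fell in Nt-/- mice (median, -0.11), shares of 6.25% and 18.8% against 10.4% and 12.6% of all tested genes called lower. Gspt1, which releases finished proteins at stop codons, fell in both (-0.32 and -0.29; adjusted p = 0.00617 and 0.0168, edgeR's quasi-likelihood test). Smg5, a decay adaptor, was at -0.16 in Nt+/+ mice (adjusted p = 0.0595) and fell in Nt-/- mice (-0.37; adjusted p = 0.000236), and Upf1, the central helicase, was at -0.18 and -0.20 (adjusted p = 0.153 and 0.114). Of 12 mRNAs known as targets of this decay, 1 rose and 4 fell (33.3%, against 10.4%) in Nt+/+ mice and 0 rose and 6 fell (of 12, against 12.6% of all tested genes) in Nt-/- mice (median, -0.20 and -0.35). Srsf7 and Srsf3, splicing factors that limit their own mRNA through decay, fell by 0.41 and 0.35 on the log2 scale in Nt+/+ mice (adjusted p = 0.00175 and 0.00461), and Upp1 fell by 0.98 (adjusted p = 0.00284).

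mTORC1 governs the translation of TOP RNAs. Of 17 tested genes of mTORC1 and TOP control, 1 rose and 3 fell in Nt+/+ mice (median log2 fold change, -0.06) and 0 rose and 2 fell in Nt-/- mice (median, -0.10). The shares that fell were 17.6% and 11.8%, against 10.4% and 12.6% of all tested genes, and the share that rose in Nt+/+ mice was 5.88%, against 11.2%. Eif4ebp1, the translation repressor that mTORC1 inactivates, rose in Nt+/+ mice by 0.64 (adjusted p = 0.00573, edgeR, quasi-likelihood) and was at 0.42 in Nt-/- mice (adjusted p = 0.0708). Of the Sestrins, sensors that restrain mTORC1, Sesn1 fell in Nt+/+ mice (-0.49; adjusted p = 0.0017) and was at -0.24 in Nt-/- mice (adjusted p = 0.115), Sesn3 fell in both (-0.33 and -0.35; adjusted p = 0.00767 and 0.00688), and Sesn2 was at 0.45 and 0.22 (adjusted p = 0.0959 and 0.48).

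The glucocorticoid receptor, to which Gas5 RNA can bind, and its targets formed a list of 8, of which 5 rose and 0 fell in each genotype (median log2 fold change, 0.97 and 1.00). The share that rose was 62.5% in each, against 11.2% of all tested genes in Nt+/+ and 12.5% in Nt-/- mice. Fkbp5, a chaperone of the receptor and one of its targets, rose by 2.36 in each genotype, Zbtb16 by 5.19 and 5.23, and the kinase Sgk1 by 3.04 and 3.16 (adjusted p of 0.000104 or less for each, edgeR's quasi-likelihood test). Gas5 in the same mice was at 0.10 and 0.05. Of 11 tested growth arrest genes, 3 rose and 0 fell in Nt+/+ mice (median, 0.31) and 6 rose and 1 fell in Nt-/- mice (median, 0.40). The shares that rose were 27.3% and 54.5%, and the share that fell in Nt-/- mice was 9.09%, against 12.6% of all tested genes. Gas6, a ligand of TAM receptors, rose by 0.69 and 0.40 (adjusted p = 0.000177 and 0.0145), Gas2 by 0.81 and 0.92 (adjusted p = 0.000394 and 0.0002), and the antiproliferative gene Btg1 by 0.39 and 0.67 (adjusted p = 0.00173 and 1.6e-05).

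**Figure D5:**
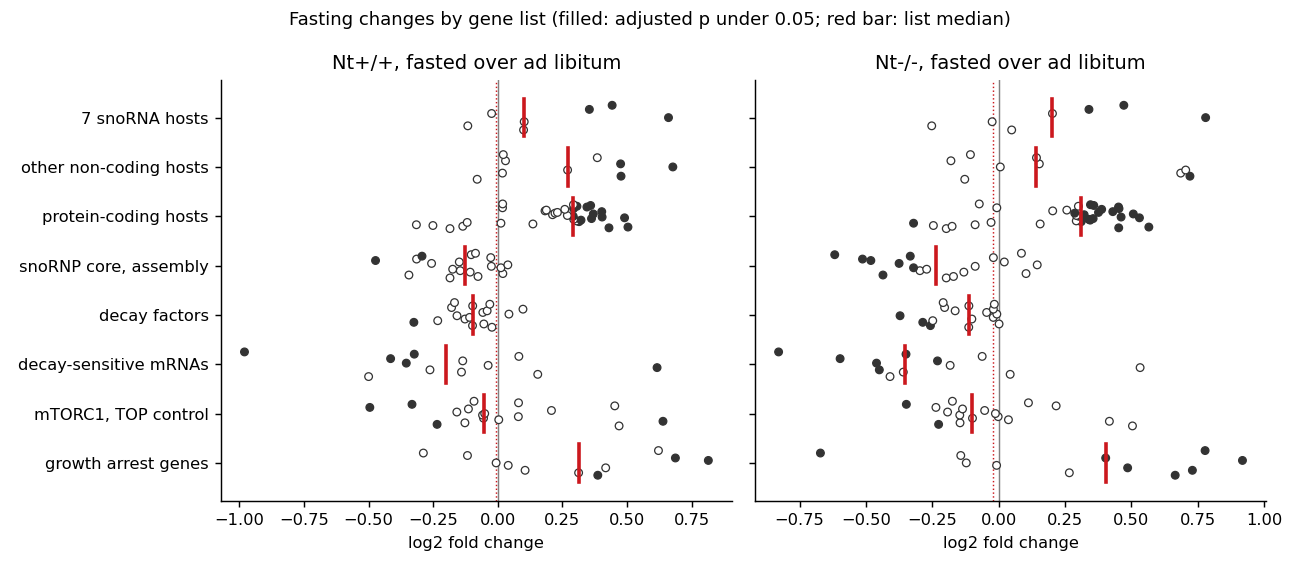
Log2 fold change of fasted over ad libitum–fed mice (horizontal axes) for each tested gene of 8 lists in Nt+/+ (left) and Nt-/- mice (right); filled points had an adjusted p under 0.05, red bars are list medians and the dotted red line is the median of all tested genes. The protein-coding hosts have a median of 0.29 and 0.31, and the snoRNA particle genes lie mostly below 0.

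Some cell type markers moved with the same comparison. Of all tested genes, 11.2% were called higher and 10.4% lower in Nt+/+ mice. In Nt-/- mice these shares were 12.5% and 12.6%. Of 7 villus enterocyte markers, 5 were called higher after fasting in Nt+/+ mice and 7 in Nt-/- mice, and their summed level went from a range of 3400 to 6890 CPM to one of 6530 to 14300 CPM in Nt+/+ mice, and from 5150 to 7620 CPM to 12600 to 17100 CPM in Nt-/- mice. Of 4 cycling cell markers, 3 fell in Nt+/+ and 4 in Nt-/- mice, and their sum went from 1400 to 1590 CPM to 893 to 1210 CPM in Nt+/+ mice and from 1330 to 1460 CPM to 783 to 1030 CPM in Nt-/- mice. Of the other lists, 1 of 4 stem cell markers, Olfm4, was called lower in Nt+/+ mice. In Nt-/- mice 2 of 4, Olfm4 and Smoc2, were called lower. Lgr5 and Ascl2 had log2 fold changes of 0.29 and 0.63 in Nt+/+ mice and -0.02 and 0.12 in Nt-/- mice, none called. Of 5 goblet cell markers, 2 were called lower in Nt+/+ and 3 in Nt-/- mice. Tff3 and Fcgbp, also on the goblet cell list, were above 0 in both genotypes and were not called. Of 8 lymphocyte markers 1 rose in Nt-/- mice (12.5%, no more than the share of all tested genes). No Paneth cell, stromal, muscle or erythrocyte marker was called. No marker on these lists was at 0 throughout a group. Whether these shifts had a part in the rise of Zfas1, Snhg3 and Snhg8 was not tested, and fewer cells of a type cannot be told apart from less RNA per cell in bulk crypts. Without the 4 libraries of low depth or high ribosomal RNA share, Zfas1 and Snhg3 were called in both genotypes (adjusted p up to 0.0325). Snhg8 was called in Nt+/+ mice (adjusted p = 0.0299) and lost its call in Nt-/- mice (adjusted p = 0.0755).

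The genes whose levels ran most like the mean standardized level of the 7 hosts over the 19 libraries, out of 13232 genes compared, were 1600020E01Rik (Pearson's r, 0.847), Ovgp1 (0.819), Nlgn2 (0.81), Ubp1 (0.799) and Hnrnpdl (0.789). With the group means taken out, the leading 5 genes were 4930539J05Rik (r, 0.826), Snhg5 (0.812), Chek1 (0.806), Ovgp1 (0.791) and 1600020E01Rik (0.784). Of these, Snhg5 is another snoRNA host. These values are descriptions over libraries that share their groups and normalization.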

How the data were processed

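One RNA sequencing library was measured for each of 19 mice. The authors depleted ribosomal RNA, read the libraries single-end, removed adapters with Trimmomatic 0.39, and mapped them to Ensembl GRCm38 transcripts with RSEM; the RSEM version and strand setting are not given in the sources used here. The deposited expected counts are not normalized, and RSEM divides reads that fit several transcripts between them. The deposited TPM values were used only to check the order of levels, the deposited FPKM values were not used, and the deposited lengths, in other units (bases), were used per kilobase and for transcript mix.

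Expected counts were rounded, and groups were taken from the sample titles. The 17875 genes that passed filterByExpr were fitted in 1 model of the 4 groups with edgeR 4.0.16 (R 4.3.3), TMM scaling and the quasi-likelihood test, with Benjamini-Hochberg adjustment over all of them and a threshold of 0.05. The code was tested on simulated data. SE was taken as the size of a log2 fold change over the root of its F statistic, and intervals are 95%. The fit left 15 residual degrees of freedom, to which edgeR adds some from the spread of all genes for its tests and intervals. A p value sets a difference against the spread between mice. Of the gene IDs, 55141 matched a symbol in GENCODE M21 (GRCm38), which also gave coordinates and sequences.

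The 7 hosts and the gene lists were chosen with earlier results of these data known, and the length and ratio measures after their values had been seen. Beyond the hosts, the text names the 3 genes of each list with the smallest p for fasting in Nt+/+ mice, the snoRNAs and neighbours found by coordinates, the 5 genes most alike, and Nts; markers and 1 gene that fell (Nop56) are exceptions.

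Replicate numbers are shared between groups. The deviations of same-numbered mice correlated at over 0.1 in all 5 pairs for fasting in Nt+/+ mice and for genotype in fasted mice, and in 2 of 4 pairs by title number and 4 of 4 by file-name number for the other comparisons, so fits with either number as a block were run. Other alternatives were no filter, a floor of 10 counts in each library, upper quartile, RLE and protein-coding TMM scaling, DESeq2 1.42.0, limma-voom (limma 3.58.1), a likelihood ratio test, sex as a covariate (without replicate 5 of the fasted Nt-/- mice, whose sex is not labelled), regrouping or leaving out the mouse with disagreeing labels, only the groups compared, each mouse left out in turn, and, chosen after seeing the data, leaving out 4 libraries of low depth or high ribosomal RNA share.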

Additional observations from a re-analysis of the deposited data

Results flagged for a closer look

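Of 28 groups of hosts and mice, 3 had 1 mouse far from the others, where chance flags about 1 group in 20. Snhg3 was at 9.05 CPM in replicate 3 of the ad libitum–fed Nt-/- mice, above the other 3 mice of the group, which were at 6.02 to 6.23 CPM. Snhg3 was at 9.08 CPM in replicate 4 of the fasted Nt+/+ mice, below the other 4. Zfas1 was at 45.0 CPM in replicate 1 of the fasted Nt+/+ mice, above the other 4, which were at 34.7 to 37.2 CPM.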

How the results depend on the processing

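Zfas1 and Snhg3 were called higher after fasting in both genotypes under all 33 alternatives run for each (adjusted p up to 0.0325, for Snhg3 in Nt+/+ mice). Blocking on replicate number, by title or by file, left 3 called hosts in each genotype and changed no call. Snhg8 lost its call with no filter on low counts, for which more genes were tested (adjusted p = 0.0629 in Nt+/+ and 0.11 in Nt-/- mice). The call in Nt-/- mice was also lost with upper quartile scaling (0.0519), sex as a covariate (0.0703; that fit also leaves out replicate 5 of the fasted Nt-/- mice, which has no sex label, and leaving out that mouse alone gave 0.069), only the groups compared (0.0923) and without the 4 libraries of low depth or high ribosomal RNA share (0.0755); the cause was not tested. The count of called hosts was 2 or 3 under every alternative in both genotypes and 0 in every other comparison. Over all tested genes, 78 were called higher and 20 lower by DESeq2 between genotypes in fasted mice, and the likelihood ratio test called 29 higher and 12 lower, against 1 with the quasi-likelihood test. Ad libitum, both called 1 higher and 2 lower, against 1.

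Signs turned only among values that were not called. With the 4 libraries left out, the log2 fold change was -0.035 for Gas5 with fasting in Nt-/- mice, and -0.026 for Snhg6 and -0.037 for Snhg8 between genotypes in fasted mice, and the log2 ratio of Snhg12 to its snoRNAs differed by -0.45 in Nt-/- mice. With sex as a covariate it was 0.063 for Snhg12 with fasting in Nt-/- mice, 0.0026 for Snhg3 between genotypes ad libitum and 0.0016 for Gas5 in the difference of fasting effects; without replicate 5 of the fasted Nt-/- mice alone these were 0.064, -0.032 and 0.0024. With the mouse of disagreeing labels grouped as Nt-/- it was 0.0076 for Snhg12 with fasting in Nt-/- mice, 0.027 for Gas5 between genotypes in fasted mice and 0.060 for Gas5 in the difference. With the file-name number as a block it was 0.010 for Snhg3 between genotypes ad libitum.

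With single mice left out, the log2 fold change with fasting ranged from -0.11 to 0.046 for Snhg6 in Nt+/+ mice, and in Nt-/- mice from -0.038 to 0.13 for Gas5 and -0.16 to 0.12 for Snhg12. Between genotypes ad libitum it ranged from -0.11 to 0.028 for Gas5, -0.18 to 0.022 for Snhg12, -0.19 to 0.029 for Snhg3, -0.0019 to 0.13 for Snhg8 and -0.0062 to 0.13 for Zfas1. In fasted mice it ranged from -0.035 to 0.18 for Snhg3, -0.044 to 0.13 for Snhg6 and -0.066 to 0.099 for Snhg8. The difference of fasting effects ranged from -0.14 to 0.028 for Gas5, -0.26 to 0.014 for Snhg12, -0.0032 to 0.28 for Snhg3, -0.12 to 0.044 for Snhg8 and -0.050 to 0.095 for Zfas1. The change of the log2 ratio of Snhg1 to its snoRNAs ranged from -0.22 to 0.11 in Nt+/+ and -0.51 to 0.082 in Nt-/- mice, and that of Snhg12 from -0.33 to 0.47 in Nt-/- mice. Without setting CPM per length, Snhg1 ranked 2, Zfas1 3, Snhg12 4 and Snhg8 5 in ad libitum–fed Nt+/+ mice. Of the snoRNA genes, 23 of 30 had too few counts to be tested. Whether depth, RNA length or library preparation set this limit was not tested.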

Other observations

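Of the resident snoRNAs other than Snora73, Snord22 in Snhg1 had a mean of 90.4 counts per library and Gm22357 in Gas5 had 82.1, and Gm22357 ranged from 0.566 to 11.3 CPM among the fasted Nt+/+ mice. Of the genes that overlap a host, Gm17300, a non-coding gene on the opposite strand of Snhg3, had log2 fold changes of 0.09 and 0.03 with fasting in Nt+/+ and Nt-/- mice, and Mcmdc2, which overlaps Snhg6 by 127 bases, had -0.63 and -0.20, none of them called (adjusted p from 0.113 to 0.942, edgeR's quasi-likelihood test).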
